A study of Arabidopsis thaliana with 24 samples.

Results

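Uncapped RNA of 38 Arabidopsis thaliana nuclear genes was more abundant after abscisic acid (ABA) in wild type and less abundant after ABA in the dxo1 mutant. The genes were chosen from GMUCT libraries, which sequence transcripts that carry a free 5′ monophosphate, as left by decapping or cleavage. Counts were scaled to CPM, a gene's count relative to all gene counts of its library, and the difference between treatments was taken on log2(group mean CPM + 1). A gene was kept if its mean over the 4 groups was at least 10 CPM, its ABA minus NT change in Col-0 was at least 0.8, and its change in dxo1 was at most -0.3. Changes given for GMUCT are ABA minus NT on this scale. Of 28775 gene rows, 11459 nuclear genes met the CPM minimum and 38 met both thresholds. Of the 38, 37 were protein-coding and 1 was a long non-coding RNA. Because the same GMUCT values chose the genes, every GMUCT difference below is a description without a test.

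The groups were dxo1 with ABA, dxo1 under the normal condition (NT), Col-0 with ABA and Col-0 NT. dxo1 is a mutant of the DXO1 gene and Col-0 is the wild-type accession. The allele and the ABA dose and duration were not given in the sources used here. Each group had 2 replicates in each of 3 assays: GMUCT, NAD capture of RNAs that begin with an NAD+ cap, and total RNA. Plants were 12 days old and grown on 1/2 MS medium in long days. The labels name both seedlings and bud tissue. In GMUCT the leaf markers RBCS1A, LHCB1.1, LHCB2.1, CA1 and RCA lay between 548 and 5125 CPM in the group means. The 7 floral markers lay between 0 and 4.90 CPM, with SEP3 the highest. Of the 6 root markers, PYK10 lay between 846 and 1397 CPM and SCR and SHR between 18.9 and 36.3. The root markers PER64, CASP1 and EXP7 lay between 1.48 and 6.98 CPM.

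ABA is the hormone that plants make in drought and cold, and it changes the transcription and the decay of many mRNAs. Most plant mRNAs end at a 5′ cap, and loss of the cap exposes them to 5′-to-3′ exonucleases, so GMUCT reads depend on both the amount of a transcript and its breakdown. DXO1 is a conserved enzyme that removes NAD+ caps and also assists normal mRNA capping in Arabidopsis.

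Gene counts per library came to 5793714 to 13940464 in GMUCT, 878113 to 2027552 in total RNA and 750596 to 1526203 in NAD capture. The DXO1 gene (AT4G17620) had 19.97 and 17.0 CPM in dxo1 ABA libraries, 23.1 and 19.8 in dxo1 NT, 26.9 and 28.8 in Col-0 ABA and 29.6 and 24.7 in Col-0 NT. Reads of the locus were present in both genotypes, and the position of the lesion in dxo1 was not given in the sources used here. LTI65, an ABA-induced gene also called RD29B, had 339 and 267 CPM in dxo1 ABA against 3.59 and 2.84 in dxo1 NT, and 1291 and 1398 in Col-0 ABA against 3.22 and 3.77 in Col-0 NT. This marker of ABA treatment was higher with ABA in both genotypes and is not among the 38. None of 14 gene lists for ABA, stress, defence, RNA decay and tissue held any of the 38. Over all genes meeting the CPM minimum the share among the 38 was 0.332%, so short lists would hold few or none. Nothing is read from this absence.

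The 250 bases upstream of the annotated start were read for each gene, because ABA-responsive transcription commonly runs through the ABRE core, ACGTG. The core was searched on both strands and was found in 9 of the 38 windows, or 23.7%. It was in 38.9% of the windows of the 633 other genes at or above the Col-0 threshold and in 23.7% of all 11455 windows read. The share in the 38 genes was that of all windows, but it rests on 9 genes and was not tested against either share. Shown are 3 member windows with 2 or more cores and that of ADS4, which has none, so that both cases can be seen. Cores are in capitals, and a G-box, CACGTG, counts as 2 because it holds a core on each strand. Each window reads 5′ to 3′ on the gene's own strand, and sequences and positions are from RefSeq, build TAIR10.1.
AT1G73120 (chr1:27498063-27498312, minus strand): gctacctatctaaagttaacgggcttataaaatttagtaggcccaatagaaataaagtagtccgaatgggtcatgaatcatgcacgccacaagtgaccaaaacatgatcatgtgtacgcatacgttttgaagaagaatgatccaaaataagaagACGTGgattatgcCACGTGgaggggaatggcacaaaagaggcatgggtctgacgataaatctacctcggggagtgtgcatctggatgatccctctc
AT4G17940 (chr4:9965492-9965741, plus strand): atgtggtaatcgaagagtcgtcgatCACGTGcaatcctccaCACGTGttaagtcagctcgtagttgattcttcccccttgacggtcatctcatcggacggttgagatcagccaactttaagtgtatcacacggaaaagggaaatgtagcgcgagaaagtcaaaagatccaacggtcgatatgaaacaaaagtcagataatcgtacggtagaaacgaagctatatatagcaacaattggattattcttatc
AT1G60200 (chr1:22205401-22205650, minus strand): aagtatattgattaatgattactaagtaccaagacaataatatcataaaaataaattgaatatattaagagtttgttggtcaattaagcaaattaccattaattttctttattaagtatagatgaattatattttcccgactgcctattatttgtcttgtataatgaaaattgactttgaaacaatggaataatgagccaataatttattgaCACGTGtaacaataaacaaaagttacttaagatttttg
ADS4 (chr1:1936842-1937091, minus strand): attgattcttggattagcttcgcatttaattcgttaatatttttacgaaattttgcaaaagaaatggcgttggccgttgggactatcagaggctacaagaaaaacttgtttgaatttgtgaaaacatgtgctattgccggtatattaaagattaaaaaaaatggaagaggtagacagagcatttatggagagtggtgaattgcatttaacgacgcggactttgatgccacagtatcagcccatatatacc
The ADS4 window has no capitals, although ADS4 had the highest Col-0 change of the 38. A match or its lack describes only these letters in this window.

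The G-box CACGTG, which contains the ABRE core, was in 5 of the 38 windows (13.2%), against 16.9% of the other genes at or above the Col-0 threshold and 7.83% of all windows. All motifs were searched on both strands. The W-box core TTGAC, bound by WRKY factors, was in 18 of 38 (47.4%, against 43.6% and 44.3%). Its extension TTGACC was in 8 of 38 (21.1%, against 8.85% and 11.9%). The DRE core CCGAC, bound by cold and drought factors, was in 8 of 38 (21.1%, against 17.2% and 13.3%). These shares were not tested.

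**Figure D1:**
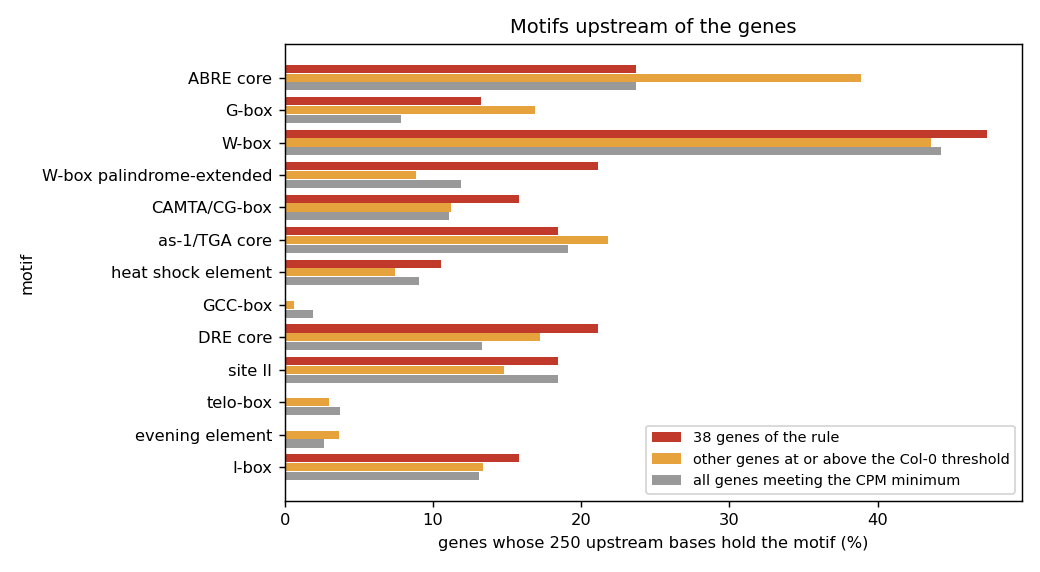
Share of genes (%) whose 250 upstream bases hold each of 13 motifs on either strand, for the 38 genes, the 633 other genes at or above the Col-0 threshold and all genes meeting the CPM minimum. The ABRE core is at 23.7% in the 38 genes and 38.9% in the other genes with the Col-0 change.

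The thresholds alone were met far more often than both together. The dxo1 threshold was met by 1539 genes (13.4%), the Col-0 threshold by 671 (5.86%), and both by 38 (0.332%). Among the 633 genes that met the Col-0 threshold only, the dxo1 change had a median of 0.46 and was above 0 in 513 genes. It reached 0.8 or more in 208. Over all 11459 genes meeting the CPM minimum, the dxo1 change was above 0 in 4835 and reached 0.8 or more in 343. Most of the 633 thus changed in the same direction in both genotypes, but the rule had removed every gene at -0.3 or lower from them. The 38 genes are the low end of the dxo1 changes at or above the Col-0 threshold, cut at -0.3. Some of the 633 also had a dxo1 change below 0, down to -0.2957.

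**Figure D2:**
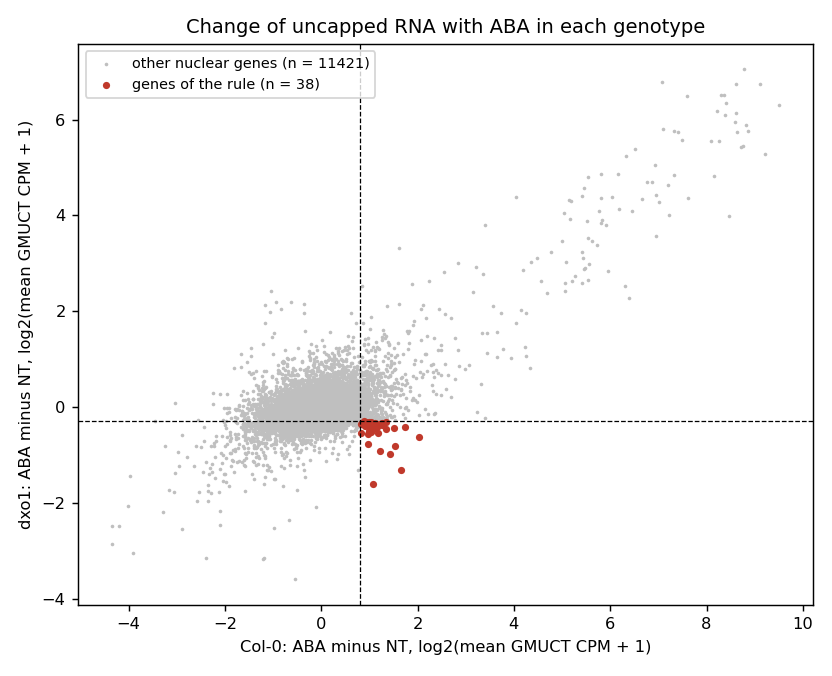
Change with ABA in dxo1 (vertical axis) against the change in Col-0 (horizontal axis), both as ABA minus NT on log2(mean GMUCT CPM + 1), for nuclear genes meeting the CPM minimum. Red points are the 38 genes in the lower right corner, right of 0.8 and below -0.3, and dashed lines are the thresholds.

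The dxo1 change of the 38 genes ranged from -1.61 to -0.30 with a median of -0.39, against a median of -0.05 over all genes meeting the CPM minimum. The Col-0 change ranged from 0.83 to 2.03 with a median of 1.04, against -0.14 over all. The unequal thresholds set which side is larger. Both dxo1 ABA libraries were below both dxo1 NT libraries in 27 of 38 genes, where 25% of all genes had this order. Both Col-0 ABA libraries were above both Col-0 NT libraries in 38 of 38, where 26.3% of all genes had it. The rule used these libraries, so nothing is read from either count.

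The group mean was highest in Col-0 ABA for 34 genes and in dxo1 NT for the other 4, AT3G28580, AT5G03350, AT5G38200 and AT2G18220. It was lowest in dxo1 ABA for 21 genes and in Col-0 NT for 17. Before treatment, dxo1 was above Col-0 in 29 of 38 genes and at least 1.5 times as high in 16, against 7232 and 1791 of all 11459 genes. The first count was 26 in the edgeR fit with TMM scaling. With ABA, dxo1 was below Col-0 in 37 of 38, against 536 of the 633 other genes at or above the Col-0 threshold and 3643 of all 11459. The rule used these group means, so nothing is read from these counts.

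**Figure D3:**
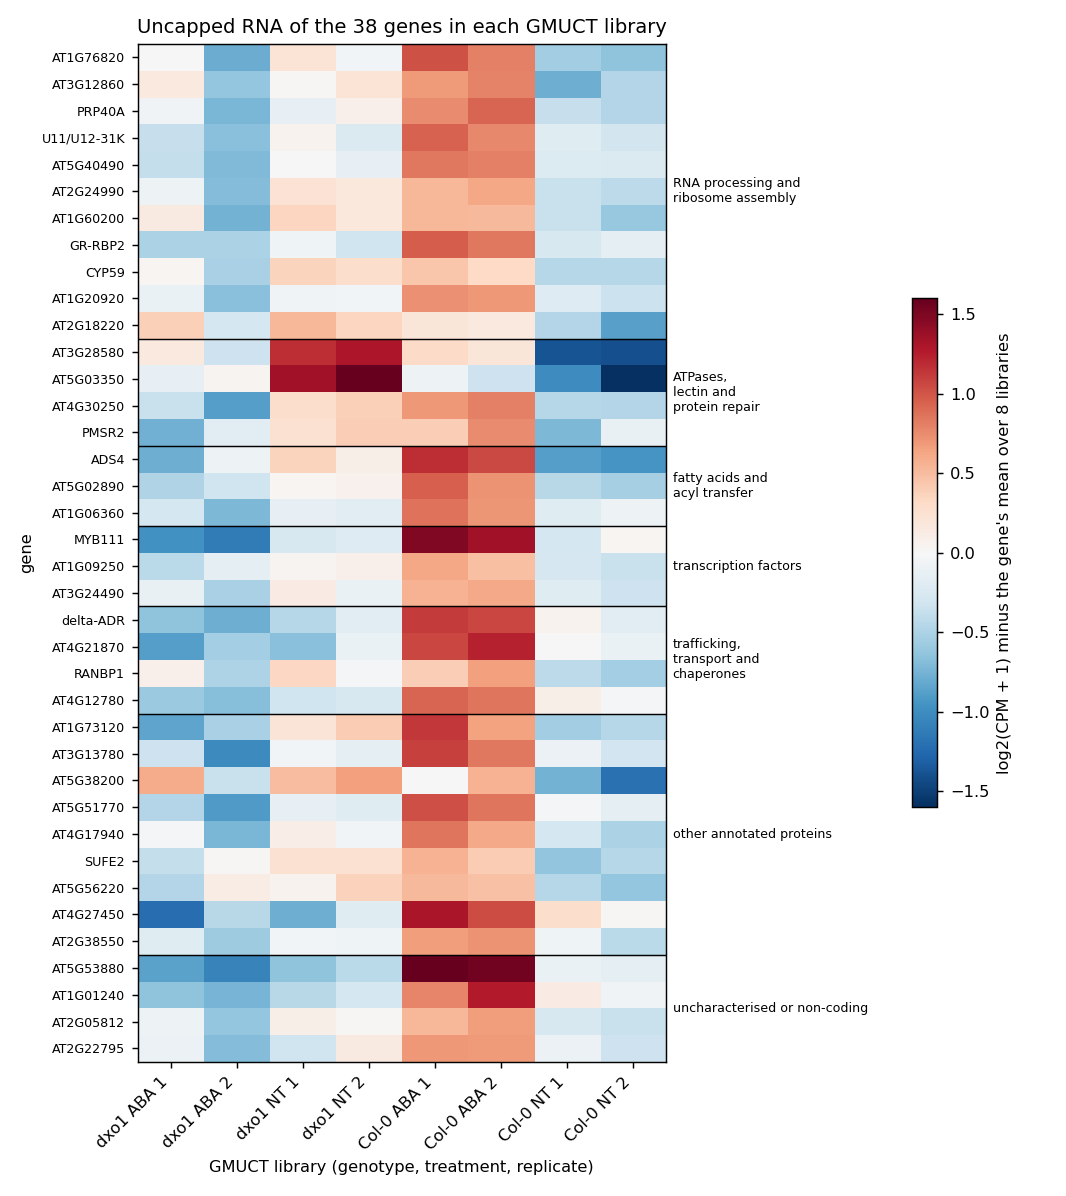
GMUCT level of each of the 38 genes (rows, by role) in each library (columns, dxo1 ABA, dxo1 NT, Col-0 ABA, Col-0 NT), as log2(CPM + 1) minus the gene's mean over the 8 libraries. Red is above and blue below that mean, and the 2 Col-0 ABA columns are the reddest for most genes.

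The members were grouped by annotated role after they had been seen. The largest group, 11 genes, had products annotated or known to work in pre-mRNA processing, ribosome assembly or translation. Genes outside the members were not grouped in this way, so nothing is read from the size of the group. A narrower class, RNA binding or RNA processing by annotated product, held 3 members, or 7.9%. It held 1.90% of the other genes at or above the Col-0 threshold and 2.41% of all genes meeting the CPM minimum. The difference was not tested. PRP40A is a splicing protein that binds the tail of RNA polymerase II. It had 129 and 80.7 CPM in dxo1 ABA, 122 and 143 in dxo1 NT, 228 and 257 in Col-0 ABA and 104 and 96.7 in Col-0 NT. Its dxo1 ABA libraries lay 1 within and 1 below the dxo1 NT values, while both Col-0 ABA libraries were above every other library.

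GR-RBP2, a cold-induced glycine-rich RNA-binding protein of mitochondria, had the highest mean of the 38 at 440.6 CPM. It had 285.9 and 286 CPM in dxo1 ABA, 389 and 327 in dxo1 NT, 797 and 733 in Col-0 ABA and 342 and 365 in Col-0 NT. The dxo1 ABA pair was the lowest of the 4 pairs and overlapped none of them. AT1G20920 (RCF1, a DEAD-box RNA helicase known for cold tolerance) had 206 and 139 CPM in dxo1 ABA, 214 and 215 in dxo1 NT, 370.5 and 358.5 in Col-0 ABA and 193 and 174 in Col-0 NT. Its first dxo1 ABA library was close to dxo1 NT and the other was well below.

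AT1G60200, a splicing factor with PWI and RNA-recognition domains, had 125 and 66.4 CPM in dxo1 ABA, 143 and 127 in dxo1 NT, 164 and 162 in Col-0 ABA and 88.1 and 74.0 in Col-0 NT. CYP59, a cyclophilin with an RNA-binding domain, had 75.8 and 51.3 CPM in dxo1 ABA, 95.2 and 90.0 in dxo1 NT, 101 and 92.2 in Col-0 ABA and 53.7 and 53.9 in Col-0 NT. In both genes dxo1 NT was already above Col-0 NT and the libraries of the 2 did not overlap. AT5G40490, an RNA-binding protein, had 80.9 and 64.7 CPM in dxo1 ABA, 106.5 and 96.7 in dxo1 NT, 190.5 and 186 in Col-0 ABA and 91.1 and 89.8 in Col-0 NT. Its Col-0 ABA pair stood above all other libraries, and its dxo1 ABA pair was the lowest.

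The minor spliceosome protein U11/U12-31K had a change of -0.43 in dxo1 and 1.098 in Col-0. Genes of ribosome assembly, with roles known from yeast, were the Noc2p family gene AT2G18220 (-0.36 in dxo1 and 0.83 in Col-0), the NOP56-like AT3G12860 (-0.30 and 1.35) and the Rio1 kinase AT2G24990 (-0.55 and 0.97). AT1G76820, annotated as an eIF-2 family translation initiation protein, had differences of -0.44 in dxo1 and 1.51 in Col-0.

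The dxo1 side of this role group rested largely on 1 library. dxo1 ABA replicate 1 was above replicate 2 in 10 of the 11 genes, with a median gap of 0.61 on the log2 scale. Leaving out replicate 2 left 2 of the 11 with a dxo1 change of -0.3 or lower, against 11 of 11 when replicate 1 was left out. Over all 38 genes, replicate 1 was above replicate 2 in 27, or 71.1%, with a median gap of 0.39, where 47.6% of all genes and a median of -0.02 were seen. Without replicate 2, 19 of the 38 kept a dxo1 change of -0.3 or lower, and the changes of AT3G12860 and AT5G38200 became 0.030 and 0.019. Applied afresh, the rule gave 31 genes without replicate 2, of which 19 were among the 38, and 96 without replicate 1, of which 33 were. Without dxo1 NT replicate 1 it gave 57 genes, 31 of them shared.

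A further group of 4 genes, also put together after their values were seen, held 2 P-loop hydrolases, a lectin and a methionine reductase, with dxo1 changes of -1.61 to -0.77. The group has no single role. AT5G56220 and AT1G20920 have the same P-loop annotation but were placed in other groups, with weaker dxo1 changes of -0.36 and -0.31. Both dxo1 ABA libraries were below both dxo1 NT libraries in 4 of the 4 genes of this group. The same order held in 3 of 3 genes of fatty acids and acyl transfer and 3 of 3 transcription factors. It held in 7 of 11 genes of RNA processing and ribosome assembly and 2 of 4 of trafficking and chaperones. Among other annotated genes it held in 5 of 9, and among uncharacterised or non-coding genes in 3 of 4. Over all genes meeting the CPM minimum the share was 25%. Nothing is read from these counts, as the rule used these libraries. AT5G03350, a legume lectin family protein, had 8.61 and 9.92 CPM in dxo1 ABA, 25.8 and 34.8 in dxo1 NT, 9.02 and 7.42 in Col-0 ABA and 4.24 and 2.48 in Col-0 NT. AT3G28580, a P-loop nucleoside triphosphate hydrolase, had 12.8 and 8.79 CPM in dxo1 ABA, 27.04 and 29.2 in dxo1 NT, 14.3 and 13.1 in Col-0 ABA and 3.73 and 3.66 in Col-0 NT. In both genes untreated dxo1 was the highest group and untreated Col-0 the lowest, and the ABA groups of the 2 genotypes lay between them. Their dxo1 changes, -1.61 and -1.31, were the lowest of the 38 and stayed under -0.3 without either dxo1 ABA library.

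PR1, a marker gene of salicylate defence and not one of the 38, had 3.35 and 3.99 CPM in dxo1 ABA, 36.2 and 45.1 in dxo1 NT, 0 and 0 in Col-0 ABA and 0.594 and 1.94 in Col-0 NT. It shared with the lectin gene the high dxo1 NT level and the lower dxo1 ABA level, but not the Col-0 difference. Of the 19 salicylate and defence genes listed, 8 met the CPM minimum and none was among the 38, where 0.332% of all genes were. Of these 8, 4 had a dxo1 change of -0.3 or lower and 0 had a Col-0 change of 0.8 or higher. Over all genes meeting the CPM minimum the shares were 13.4% and 5.86%, and the difference was not tested. AT4G30250, a further P-loop hydrolase, had 15.5 and 10.5 CPM in dxo1 ABA, 24.8 and 26.5 in dxo1 NT, 33.1 and 36.1 in Col-0 ABA and 14.4 and 14.3 in Col-0 NT. PMSR2, a reductase that repairs oxidised methionine, had 5.62 and 8.995 CPM in dxo1 ABA, 12.4 and 13.9 in dxo1 NT, 13.8 and 18.1 in Col-0 ABA and 5.85 and 9.37 in Col-0 NT. In these genes, unlike the lectin gene, Col-0 ABA was the highest group mean.

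**Figure D4:**
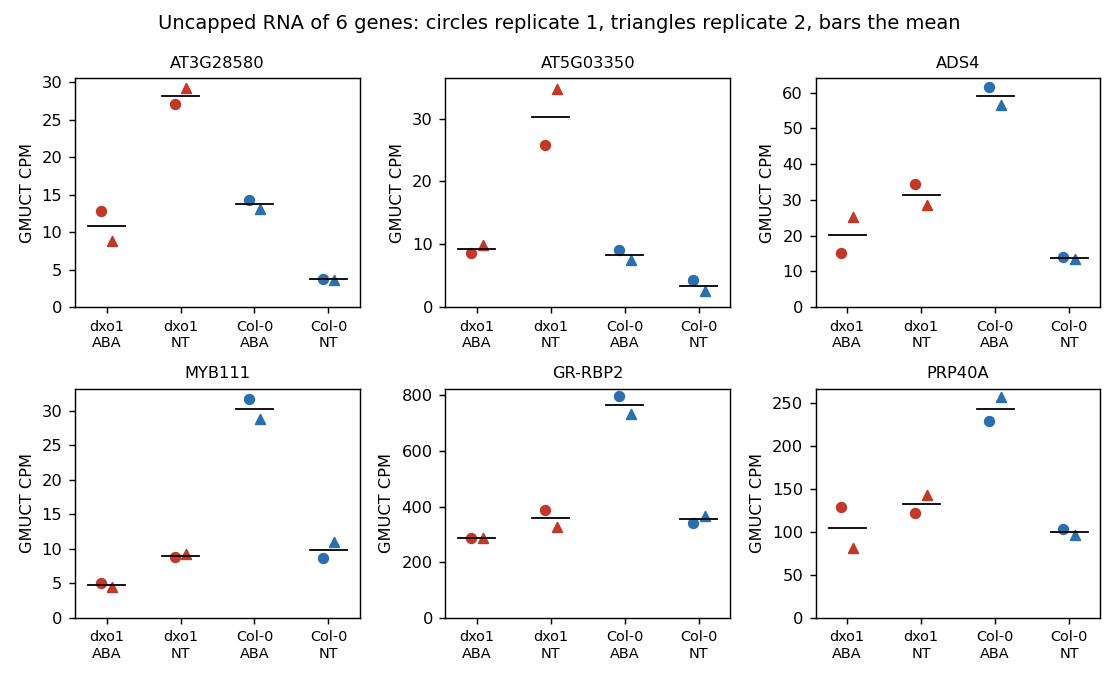
GMUCT CPM of 6 of the 38 genes by group, with circles for replicate 1, triangles for replicate 2 and bars for the mean of the 2. AT3G28580 and AT5G03350 are highest in dxo1 NT, and ADS4, MYB111, GR-RBP2 and PRP40A are highest in Col-0 ABA.

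Among genes of fatty acid metabolism, ADS4, a desaturase, had 15.1 and 25.2 CPM in dxo1 ABA, 34.5 and 28.5 in dxo1 NT, 61.6 and 56.4 in Col-0 ABA and 13.99 and 13.4 in Col-0 NT. Its Col-0 change of 2.03 was the highest of the 38, and dxo1 NT was above Col-0 NT without overlap. The next gene on chromosome 1, AT1G06360, lies 2020 bases away, is annotated as a desaturase of the same family and was also among the 38. It had 49.7 and 36.6 CPM in dxo1 ABA, 55.0 and 53.9 in dxo1 NT, 111 and 99.9 in Col-0 ABA and 52.8 and 57.0 in Col-0 NT, so the untreated genotypes overlapped. Short reads from such related genes can be hard to tell apart. AT5G02890, an acyltransferase family protein, had a difference of -0.45 in dxo1 and 1.34 in Col-0.

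MYB111, a transcription factor that turns on flavonol synthesis, had 5.02 and 4.396 CPM in dxo1 ABA, 8.82 and 9.19 in dxo1 NT, 31.7 and 28.8 in Col-0 ABA and 8.65 and 10.99 in Col-0 NT. The untreated genotypes lay close together for this gene, and the groups with ABA were the lowest and the highest of the 4. The bHLH gene AT1G09250 (AIF4) and the MYB/SANT-like gene AT3G24490 had dxo1 changes of -0.35 and -0.32 and Col-0 changes of 0.86 and 0.85.

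In the group of trafficking and chaperone genes, dxo1 was above Col-0 before treatment in 1 of 4, against 7232 of all 11459 genes. Nothing is read from this count, as the rule used these group means. delta-ADR, the delta subunit of the AP-3 adaptor that sorts cargo to the vacuole, had 31.4 and 28.5 CPM in dxo1 ABA, 36.2 and 44.0 in dxo1 NT, 109 and 106 in Col-0 ABA and 51.9 and 44.1 in Col-0 NT. Its Col-0 ABA pair stood above the rest. The HSP20-like AT4G21870 had 57.4 and 73.0 CPM in dxo1 ABA, 66.9 and 99.2 in dxo1 NT, 224 and 253 in Col-0 ABA and 108 and 99.2 in Col-0 NT. Its dxo1 ABA and NT libraries overlapped. RANBP1, a cofactor of the Ran GTPase in nuclear transport, and the J-domain gene AT4G12780 had dxo1 changes of -0.35 each and Col-0 changes of 1.01 and 0.85.

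Of the remaining annotated genes, AT1G73120, an F-box family protein of ubiquitin ligases, had 10.3 and 13.1 CPM in dxo1 ABA, 22.2 and 25.7 in dxo1 NT, 43.2 and 30.7 in Col-0 ABA and 12.7 and 13.7 in Col-0 NT. This is the gene with 3 ABRE cores in the window printed above, and its dxo1 ABA and NT libraries did not overlap. AT5G38200, a glutamine amidotransferase-like protein, had 518 and 268 CPM in dxo1 ABA, 482 and 542 in dxo1 NT, 344 and 504.5 in Col-0 ABA and 203 and 150 in Col-0 NT. Its first dxo1 ABA library lay between the dxo1 NT values. AT4G27450 had 40.9 and 70.3 CPM in dxo1 ABA, 55.5 and 83.8 in dxo1 NT, 240 and 199 in Col-0 ABA and 117 and 97.5 in Col-0 NT, so the dxo1 groups overlapped, and its dxo1 change was 0.0022 without dxo1 NT replicate 2 and 0.014 without dxo1 ABA replicate 1.

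AT4G17940, a tetratricopeptide repeat protein with 4 ABRE cores in its window, had differences of -0.37 in dxo1 and 1.13 in Col-0. SUFE2, an activator of sulfur transfer for iron-sulfur clusters, had -0.40 and 1.02, the kinase AT5G51770 had -0.51 and 1.04, and the FHA-domain gene AT3G13780 had -0.54 and 1.18. AT5G56220 (a P-loop hydrolase) had -0.36 and 1.03, and AT2G38550 (a membrane protein annotated as 14C) had -0.31 and 0.93. The uncharacterised AT5G53880 had 26.3 and 22.5 CPM in dxo1 ABA, 30.4 and 35.5 in dxo1 NT, 158 and 143 in Col-0 ABA and 44.95 and 43.8 in Col-0 NT, with both Col-0 ABA libraries far above the rest. The uncharacterised AT1G01240 and AT2G22795 had dxo1 changes of -0.34 and -0.30 and Col-0 changes of 1.00 and 0.89.

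The non-coding AT2G05812 had -0.39 and 0.90 and lies antisense to AT2G05810. In all, 11 of the 38 overlap an annotated gene, 10 of them on the opposite strand. The libraries were strand-specific per the labels, but the strand setting used in counting was not given in the sources used here, so reads of overlapping genes may be shared. In bulk tissue, fewer cells of a type and less RNA per cell cannot be told apart.

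Of the 38 genes, 13 (34.2%) had no intron, against 18.8% of the other genes at or above the Col-0 threshold and 13.4% of all genes meeting the CPM minimum. The number of introns in the 38 ranged from 0 to 27, and no difference in introns was tested. The median number of introns was 1 in the 38, 2 in the other genes with the Col-0 change and 4 in all. In the RNA-processing group 1 of 11 genes lacked introns, and in the other 27 it was 12. Median exonic length was 1780 bases in the 38, 1540 in the other genes with the Col-0 change and 1800 in all. The 38 genes lay on chromosomes 1 to 5 as 12, 5, 5, 6 and 10 genes.

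Just inside the Col-0 threshold were CYP59 and AT2G18220, at 0.83 each, and just outside were AT5G54910 and HB33, at 0.78 each. Just inside the dxo1 threshold were AT2G22795 and AT3G12860 at -0.30, and just outside were AT1G71870 at -0.2957 and AT1G66660 at -0.29. Just inside the CPM minimum were AT1G09250 at 10.25 and PMSR2 at 11.01 CPM, and just outside were AT4G31620 at 9.87 and CRF5 at 9.13 CPM.

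Total RNA libraries, which the rule did not use, asked whether transcript levels followed the same pattern. They covered the 38 genes thinly, with 56 to 219 counts in all 38 together per library, and 8 of the 38 passed the low-count filter of the 4965 genes tested. By edgeR's quasi-likelihood test with Benjamini-Hochberg adjustment, 0 of the 8 changed with ABA in dxo1, where 0.544% of genes rose and 0.181% fell, and 0 of the 8 changed with ABA in Col-0, where 0.363% rose and 0.0806% fell. At an unadjusted p under 0.05 by edgeR these counts were 0 and 1, where 10.47% and 12.23% of all genes tested had such a p. DESeq2 called 0 in both.

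The median change with ABA over the 8 genes was -0.25 in dxo1 and -0.27 in Col-0, against 0.06 and 0.01 over all genes tested. The interaction of genotype and ABA called 0 of the 8, with 0 called among all genes (0% higher and 0% lower), and its median was -0.22 against 0.05 over all. AT5G56220 had total RNA counts of 8 and 19 in dxo1 ABA, 8 and 11 in dxo1 NT, 9 and 11 in Col-0 ABA and 2 and 1 in Col-0 NT. Its log2 change with ABA was 0.29 ± 0.59 (SE) in dxo1 and 2.37 ± 0.88 in Col-0, neither past the threshold (adjusted p = 0.926 and 0.304 by edgeR). In simulated libraries of this depth, changes were planted in genes drawn from all that passed the filter. For ABA in Col-0, 10.4% of genes planted with a log2 change of 1 were recovered, 55.2% with 2 and 97% with 3. For the interaction these shares were 1.49%, 20.9% and 60.6%. Among such genes a change of the size seen in GMUCT would thus often be missed. Recovery at the counts of the 8 members was not simulated.

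Between genotypes in total RNA, 0 of the 8 passed without ABA and 0 with ABA, where 0.0604% and 0.0403% of all genes were lower in dxo1 and 0% higher in both. At an unadjusted p under 0.05 by edgeR the counts were 3 and 1, where 13.49% and 9.83% of all genes tested had such a p. DESeq2 called 0. AT2G18220 (Noc2p family) had 6 and 40 counts in dxo1 ABA, 30 and 45 in dxo1 NT, 6 and 10 in Col-0 ABA and 6 and 5 in Col-0 NT. Its log2 difference between dxo1 and Col-0 without ABA was 2.23 ± 0.81 (SE) and did not pass (adjusted p = 0.258 by edgeR), and the 2 dxo1 ABA libraries were far apart. Its adjusted p was 0.0249 without dxo1 ABA replicate 1, 0.0248 without replicate 2 and 0.00736 with no low-count filter, and its change with ABA in dxo1 was called without dxo1 ABA replicate 2 (adjusted p = 0.0167). With ABA, it and AT2G22795 were called in dxo1 against Col-0 without dxo1 ABA replicate 1 (adjusted p = 0.0313 and 0.0117).

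Summed over the 38 genes, total RNA held 750.5 and 848 CPM of nuclear protein-coding counts in dxo1 ABA, 1001 and 945 in dxo1 NT, 687 and 631 in Col-0 ABA and 616 and 361 in Col-0 NT. The same sums in GMUCT, where the rule fixed their order, were 2765 and 2033 in dxo1 ABA, 3125 and 3245 in dxo1 NT, 5103 and 5138 in Col-0 ABA and 2515 and 2302 in Col-0 NT. In total RNA the dxo1 ABA libraries were below the dxo1 NT libraries and the Col-0 ABA libraries above the Col-0 NT libraries. Without the 2 genes with most total RNA counts, the dxo1 sums were 667 and 538 with ABA against 687 and 599 NT, and the Col-0 sums were 617 and 552 with ABA against 553 and 284 NT, so that both pairs of groups overlapped. In NAD capture the sums were 989 and 962 in dxo1 ABA, 1282 and 1244 in dxo1 NT, 1055.5 and 748 in Col-0 ABA and 1444 and 1051 in Col-0 NT. Both dxo1 ABA libraries were below both dxo1 NT libraries there, and Col-0 ABA replicate 1 was just above Col-0 NT replicate 2.

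**Figure D5:**
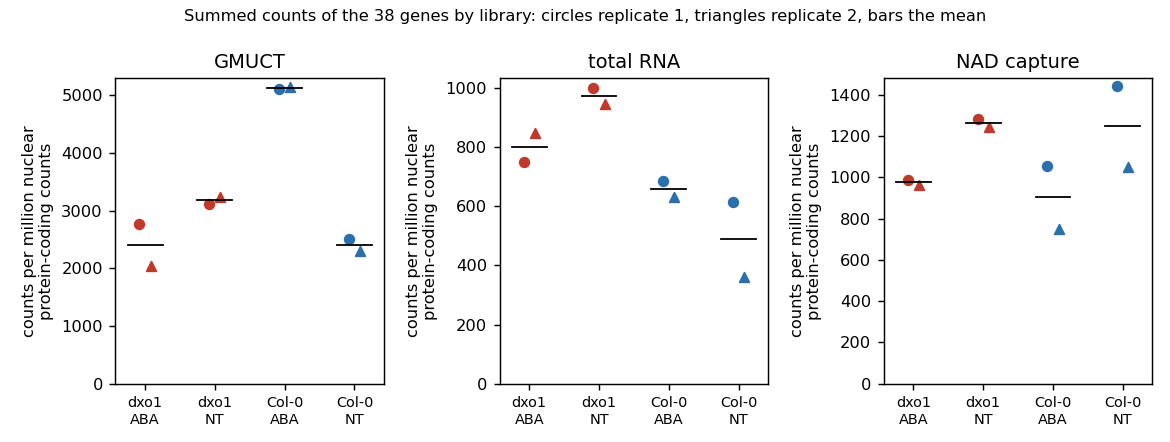
Summed counts of the 38 genes, as CPM of nuclear protein-coding counts, in each library of GMUCT, total RNA and NAD capture, by group, with circles for replicate 1, triangles for replicate 2 and bars for the mean. In GMUCT Col-0 ABA stands at 5103 and 5138, and in total RNA every group lies between 361 and 1001. The rule used GMUCT levels, so levels are not compared between assays.

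NAD capture against total RNA asked whether any of the 38 were higher in the capture of NAD-capped RNA, the substrate of DXO1. The 24 libraries held no capture control, so NAD capping and non-specific recovery cannot be told apart in this ratio. Of the 5475 genes tested, 8 were among the 38. AT1G06360 and AT1G73120 were tested here but not in total RNA alone, and AT1G20920 and AT5G56220 the reverse. In dxo1 ABA 1 was higher in NAD capture (background 5.37%) and 0 lower (6.03%). In dxo1 NT 2 were higher (7.03%) and 1 lower (6.45%). In Col-0 ABA the counts were 0 higher (1.17%) and 0 lower (1.75%), and in Col-0 NT 0 (1.52%) and 0 (2.76%). In each of these 1 member had an unadjusted p under 0.05 by edgeR. Of all genes tested, 18.21% in Col-0 ABA and 17.59% in Col-0 NT had such a p. DESeq2 called 0 in both Col-0 groups, and 1 and 3 in dxo1 ABA and dxo1 NT.

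AT1G73120 had 9 and 6 NAD counts against 1 and 0 total RNA counts in dxo1 ABA, and 15 and 14 against 1 and 2 in dxo1 NT. The log2 differences were 4.22 ± 1.099 (adjusted p = 0.0144) and 3.58 ± 0.89 (adjusted p = 0.00865, both by edgeR), fitted on few total RNA counts. The ratio of NAD to total RNA was 29.3 in dxo1 ABA (95% exact counting interval 4.51 to 1233) and 14.6 in dxo1 NT (4.53 to 75.0). GR-RBP2 had 31 and 26 NAD counts against 10 and 11 total RNA counts in dxo1 NT, a difference of 1.86 ± 0.52 (adjusted p = 0.0182). In Col-0 NT it had 29 and 10 against 12 and 3, a difference of 1.45 ± 0.57 that did not pass (adjusted p = 0.172). The difference between the genotypes was not tested.

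AT2G18220 was lower in NAD capture in dxo1 NT, with 1 and 0 NAD counts against 30 and 45 total RNA counts, a ratio of 0.0202 (95% exact counting interval 0.000504 to 0.116; adjusted p = 0.00149 by edgeR). Scaling by library size alone ended the AT1G73120 and GR-RBP2 calls. The AT1G73120 call in dxo1 NT ended without dxo1 NT NAD replicate 1, NAD replicate 2 or total RNA replicate 1, and that of GR-RBP2 also without total RNA replicate 2. The AT1G73120 call in dxo1 ABA ended without either NAD replicate or total RNA replicate 2, and AT2G18220 passed as well, as lower in NAD capture, without total RNA replicate 1 (adjusted p = 0.0107). Col-0 ABA NAD replicate 1 stood apart, with 33159 nuclear protein-coding counts and 26 of the 38 genes at 0.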

How the data were processed

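Counts of reads per gene were deposited by the authors for 24 libraries (12 groups of genotype, treatment and assay, 2 replicates each). Single-end 50 nt reads were sequenced per the labels. The submitters' processing notes name cutadapt, STAR 2.4.2a, HTSeq and TAIR10, while neither the counting mode nor the release of the annotation is stated there or in the labels. Rows for unassigned reads were left out. CPM used all gene rows, and the rule was applied to group means with a pseudocount of 1. Of 28775 gene rows, 97.3% matched the RefSeq TAIR10.1 annotation. Gene counts per library were 5793714 to 13940464 in GMUCT, 878113 to 2027552 in total RNA and 750596 to 1526203 in NAD capture.

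Total RNA was fitted over 8 libraries, and NAD with total RNA over 16, with edgeR 4.0.16 (TMM, filterByExpr minimum count 10, quasi-likelihood test, Benjamini-Hochberg adjustment over all genes tested, threshold 0.05), run in R 4.3.3 and tested on simulated data, with DESeq2 1.42.0 as an alternative. SE is the log2 difference over the square root of F. Labels do not say whether replicates came from separate cultures, so p-values measure the spread between these samples, which may be technical. Counting intervals cover counting error only.

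The members and lists were chosen with earlier results of these data known. Named members were the 12 with the largest difference between genotypes, the 8 with the highest mean CPM, up to 2 per list or family, those called, the 6 with most total RNA counts and those beside each threshold. The remaining members were named after their values were seen. Same-numbered replicates correlated in their deviations by -0.09 to 0.27, and not every pair exceeded 0.1, so the numbers were not treated as pairs.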

Additional observations from a re-analysis of the deposited data

How the results depend on the processing

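The rule gave 38 genes. The median Col-0 change over all genes was -0.01 in the edgeR fit with TMM, against -0.14 by CPM. The rule gave 53 genes with TMM scaling (34 shared), 40 over nuclear genes only, 40 with a pseudocount of 0.5, 49 with a minimum of 5 CPM and 28 with 20 CPM. Leaving out 1 GMUCT library gave 31 to 96 genes, the 96 without dxo1 ABA replicate 1. Without 1 library at a time, the dxo1 change ranged from -0.74 to 0.030 in AT3G12860, with the upper value without dxo1 ABA replicate 2, and from -0.93 to 0.019 in AT5G38200, likewise. In AT4G27450 it ranged from -0.75, without dxo1 ABA replicate 2, to 0.014, without dxo1 ABA replicate 1, and was 0.0022 without dxo1 NT replicate 2. The cause was not tested.

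In total RNA, leaving out 1 library gave 0 to 1 members called for ABA in dxo1, 0 to 1 for dxo1 against Col-0 without ABA and 0 to 2 with ABA. No low-count filter gave 1 for dxo1 against Col-0 without ABA. In NAD capture against total RNA, library size scaling gave 1 in Col-0 ABA (AT4G27450, lower), 1 in dxo1 NT and 0 in dxo1 ABA. Leaving out 1 library gave 1 to 3 in dxo1 NT and 0 to 2 in dxo1 ABA.

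The labels' replicate numbers were tried as a replicate block, although they did not pair the samples. With the block, 34 of the 38 genes met the direction in both pairs, 0 members were called in the 5 total RNA comparisons, 3 in NAD capture in dxo1 NT and 1 in dxo1 ABA. Depth limits the total RNA and NAD results, in each of which 30 of the 38 genes could not be tested. The genes tested were not all the same in both.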
